A study of Mus musculus with 44 samples.

Results

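The 51 genes described here encode the machinery of the cell cycle and of DNA replication, and all 51 were found by symbol among the 20105 identifiers of the count table. By role, 11 act in G1, 13 in S phase and 27 in mitosis. They were measured by RNA-seq of liver nuclei from 22 male HEP-INTACT mice, whose hepatocyte nuclei bear a tag that allows their immunoprecipitation. The mice are named below by study and animal number (FPC_ and CDA_), and every mouse gave 2 libraries, one of tagged hepatocyte nuclei and one of whole liver nuclei. In the FPC study, 3 mice with advanced and 4 with mild steatohepatitis had received the FPC diet for 20 weeks, and 4 controls had received a low-fat diet for as long. In the CDAHFD study, 3 mice with advanced and 4 with mild disease had received the CDAHFD, a high-fat diet that lacks choline and has defined amino acids, for 7 weeks, and 4 controls again a low-fat diet for as long. Mild and advanced disease were told apart by liver histology, fibrosis being the mark of the advanced group, so stage was not randomised. The promoter that drives the tag and the age of the mice are not given in the sources used here.

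A cell that leaves quiescence raises D-type cyclins, which with Cdk4 or Cdk6 release E2F transcription factors from the retinoblastoma protein family. E2F factors drive genes of origin licensing, DNA synthesis and nucleotide supply in late G1 and S phase. Genes of mitosis are transcribed later, under complexes that hold B-Myb and FoxM1 and that contact promoters at the CHR element and, with NF-Y, at CCAAT boxes. Adult hepatocytes are mostly quiescent, often polyploid, and re-enter the cycle after injury.

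Library totals ran from 12135408 to 33063251 counts. Levels are given as CPM, that is, counts scaled to the library's total, and for most genes introns were counted with exons. Changes are log2 fold changes ± standard error (SE) from edgeR's quasi-likelihood test, and a gene is said to have risen or fallen where its Benjamini-Hochberg adjusted p over all genes was under 0.05. The test scales libraries by the trimmed mean (TMM), which lowers every change of advanced against control mice, relative to plain library totals, by -0.40 (hepatocyte, FPC), -0.49 (hepatocyte, CDAHFD), -0.44 (whole liver, FPC) and -0.46 (whole liver, CDAHFD) on the log2 scale. Changes are therefore relative to the bulk of genes. In the CDAHFD controls, the hepatocyte library of mouse CDA_9862 resembled the whole liver library of mouse CDA_9867 and the reverse (correlations of deviations 0.781 and 0.676, against -0.181 and -0.242 with the library of the same number). All 4 are control libraries, so no comparison of stages within a fraction mixes groups by it, but tests that pair the fractions of a mouse are touched. Animal numbers are separate mice, and bulk nuclei do not tell fewer cells of a type from less RNA per cell.

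Promoters are shown first, since the genes are compared by phase and each phase has its own known promoter elements. RefSeq windows of 250 bases before to 50 after the start (GRCm38.p6) were at hand for 42 of the 51 genes. Tpx2, Ccna2, Ccnd1, Ccnd2, Ccne2, Mcm4, Aurkb, Kif20a and Foxm1 had no window and were not searched. They were searched on both strands for CHR (TTTGAA or TTCGAA), the CCAAT box (CCAAT) and an E2F core (TTCCCGC or TTGGCGC or TTCGCGC or TTGCCGC). CHR was found in 17 of 22 mitotic genes (77.3%), 2 of 12 S-phase genes (16.7%) and 2 of 8 G1 genes (25%), against 21.7% of 27025 genes. The E2F core was found in 8 of 12 S-phase genes (66.7%), 4 of 8 G1 genes (50%) and 4 of 22 mitotic genes (18.2%), against 10.9% of all. The CCAAT box was found in 77.3% of mitotic, 75% of S-phase and 50% of G1 genes, against 41.1% of all. A CCAAT box together with CHR stood in 15 mitotic genes (68.2%), against 8.61% of all. A match is a string of letters in a window, not a bound site. The windows of 8 genes held none of the 3 motifs (Ccne1, Cdk4, Cdk6, E2f1, Tyms, Birc5, Mybl2 and Nusap1), that of Ccnb2 held CCAAT and CHR, and those of Cdk2 and Mcm10 a CCAAT box, in Cdk2 beside an E2F core.

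**Figure D1:**
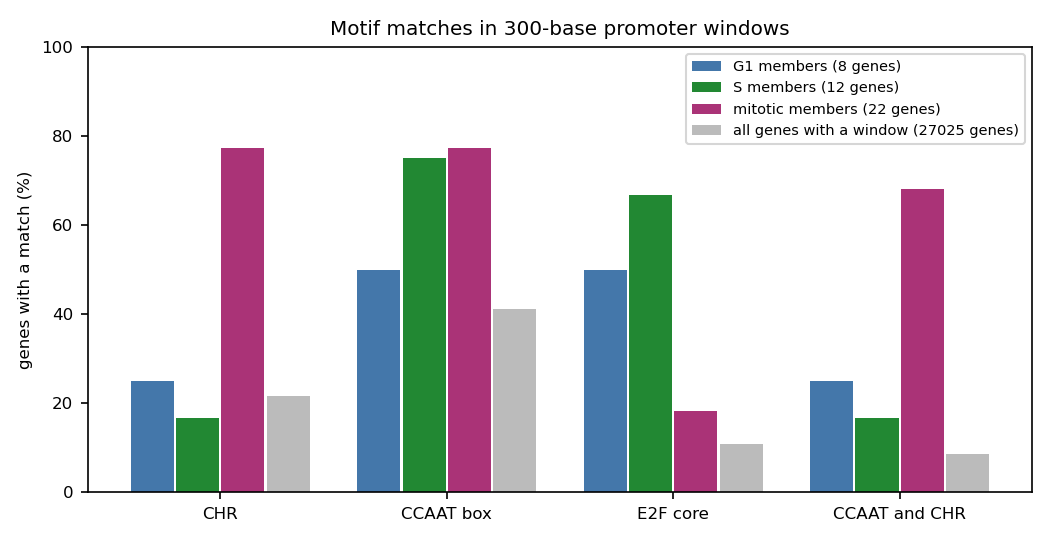
Share of genes (y axis, %) whose 300-base promoter window holds each motif (x axis), for G1, S-phase and mitotic genes and for all genes with a window. CHR stands highest in the mitotic genes (77.3%) and the E2F core in the S-phase genes (66.7%).

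Upstream bases are printed for the genes of each phase with the largest changes in advanced FPC hepatocyte nuclei among those with a window and a match upstream. Every match in the printed bases is in capitals. Ccnd1 and Ccnd2 had no window, and E2f2 did not pass the test of that comparison. The genes printed are E2f8 (chr7:48881597-48881728, minus strand) and E2f2 (chr4:136172174-136172273, plus) for G1, and Cdc6 (chr11:98907993-98908150, plus) and Mcm5 (chr8:75109325-75109508, plus) for S phase. For mitosis they are Cenpf (chr1:189688087-189688238, minus) and Bub1 (chr2:127831860-127831959, minus). Cenpf and Bub1 were also counted above for CHR, and E2f2 for CHR and an E2F core. Those matches lie outside the printed bases. Mki67 (chr7:135716380-135716587, minus) was added after the values were seen, because it holds CCAAT boxes and CHR upstream. Each is read 5′ to 3′ in the direction of transcription and ends at the base before the start of its window's transcript. For Cdc6 the printed bases lie inside the gene as counted, which begins at 98907889. In a check, bases after the start were found in a transcript of every printed gene but Mcm5.
E2f8: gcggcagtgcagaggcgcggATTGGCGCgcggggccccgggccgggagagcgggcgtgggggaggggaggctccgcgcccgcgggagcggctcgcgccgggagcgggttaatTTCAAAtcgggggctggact
E2f2: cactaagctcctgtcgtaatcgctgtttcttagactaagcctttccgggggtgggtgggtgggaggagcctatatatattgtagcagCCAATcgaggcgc
Cdc6: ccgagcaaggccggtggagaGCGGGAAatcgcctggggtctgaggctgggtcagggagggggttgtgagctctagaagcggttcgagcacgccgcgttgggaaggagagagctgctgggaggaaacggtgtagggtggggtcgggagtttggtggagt
Mcm5: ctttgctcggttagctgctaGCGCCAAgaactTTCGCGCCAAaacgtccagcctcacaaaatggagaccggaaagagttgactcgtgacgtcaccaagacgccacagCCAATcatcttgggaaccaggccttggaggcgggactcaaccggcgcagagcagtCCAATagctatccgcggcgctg
Cenpf: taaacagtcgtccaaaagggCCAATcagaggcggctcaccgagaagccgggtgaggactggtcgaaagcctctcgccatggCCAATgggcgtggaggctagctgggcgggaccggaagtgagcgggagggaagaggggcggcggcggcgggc
Bub1: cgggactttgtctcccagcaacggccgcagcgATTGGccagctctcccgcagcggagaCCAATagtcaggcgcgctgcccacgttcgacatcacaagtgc
Mki67: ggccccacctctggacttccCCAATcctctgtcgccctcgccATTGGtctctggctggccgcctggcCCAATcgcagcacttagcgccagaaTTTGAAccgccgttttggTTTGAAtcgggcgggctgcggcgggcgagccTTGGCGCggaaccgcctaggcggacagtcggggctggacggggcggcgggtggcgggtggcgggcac
In E2f8 a CCAAT box and an E2F core overlap, 112 and 111 bases before the start, and the reverse form of CHR stands 20 bases before it. Mcm5 has overlapping E2F cores 152 and 149 bases before the start, a further core 164 bases before it, and CCAAT boxes at 77 and 22. Cdc6 has an E2F core at 138. Mki67 has CCAAT boxes at 188, 166 and 141, CHR at 116 and 98, and an E2F core at 67.

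In hepatocyte nuclei most cell cycle genes were higher in diseased than in control mice, and mitotic genes by far more than G1 or S-phase genes. In advanced FPC mice against controls, 41 of 51 genes rose and 1 fell, while 26.5% of 13498 genes rose and 20.4% fell. Of the 41, 37 rose by more than 2-fold, against 21.1% of all genes. The median change was 0.64 for G1, 1.26 for S-phase and 3.29 for mitotic genes, beside 0.00 for all genes. In advanced CDAHFD mice against controls, 42 rose and 1 fell, against 30.3% and 29.2% of 13277 genes, and 39 rose by more than 2-fold (20.6% of all). The medians there were 1.05, 1.49 and 4.20, beside -0.00 for all genes. Scaled by library totals alone, a setting chosen after seeing the data, the shares of all genes became 44.7% higher and 7.99% lower for FPC and 49.6% and 12.3% for CDAHFD. CPM of 44 genes in FPC and 45 in CDAHFD lay above every control in every advanced mouse, as did 45.7% and 46.5% of all genes tested.

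**Figure D2:**
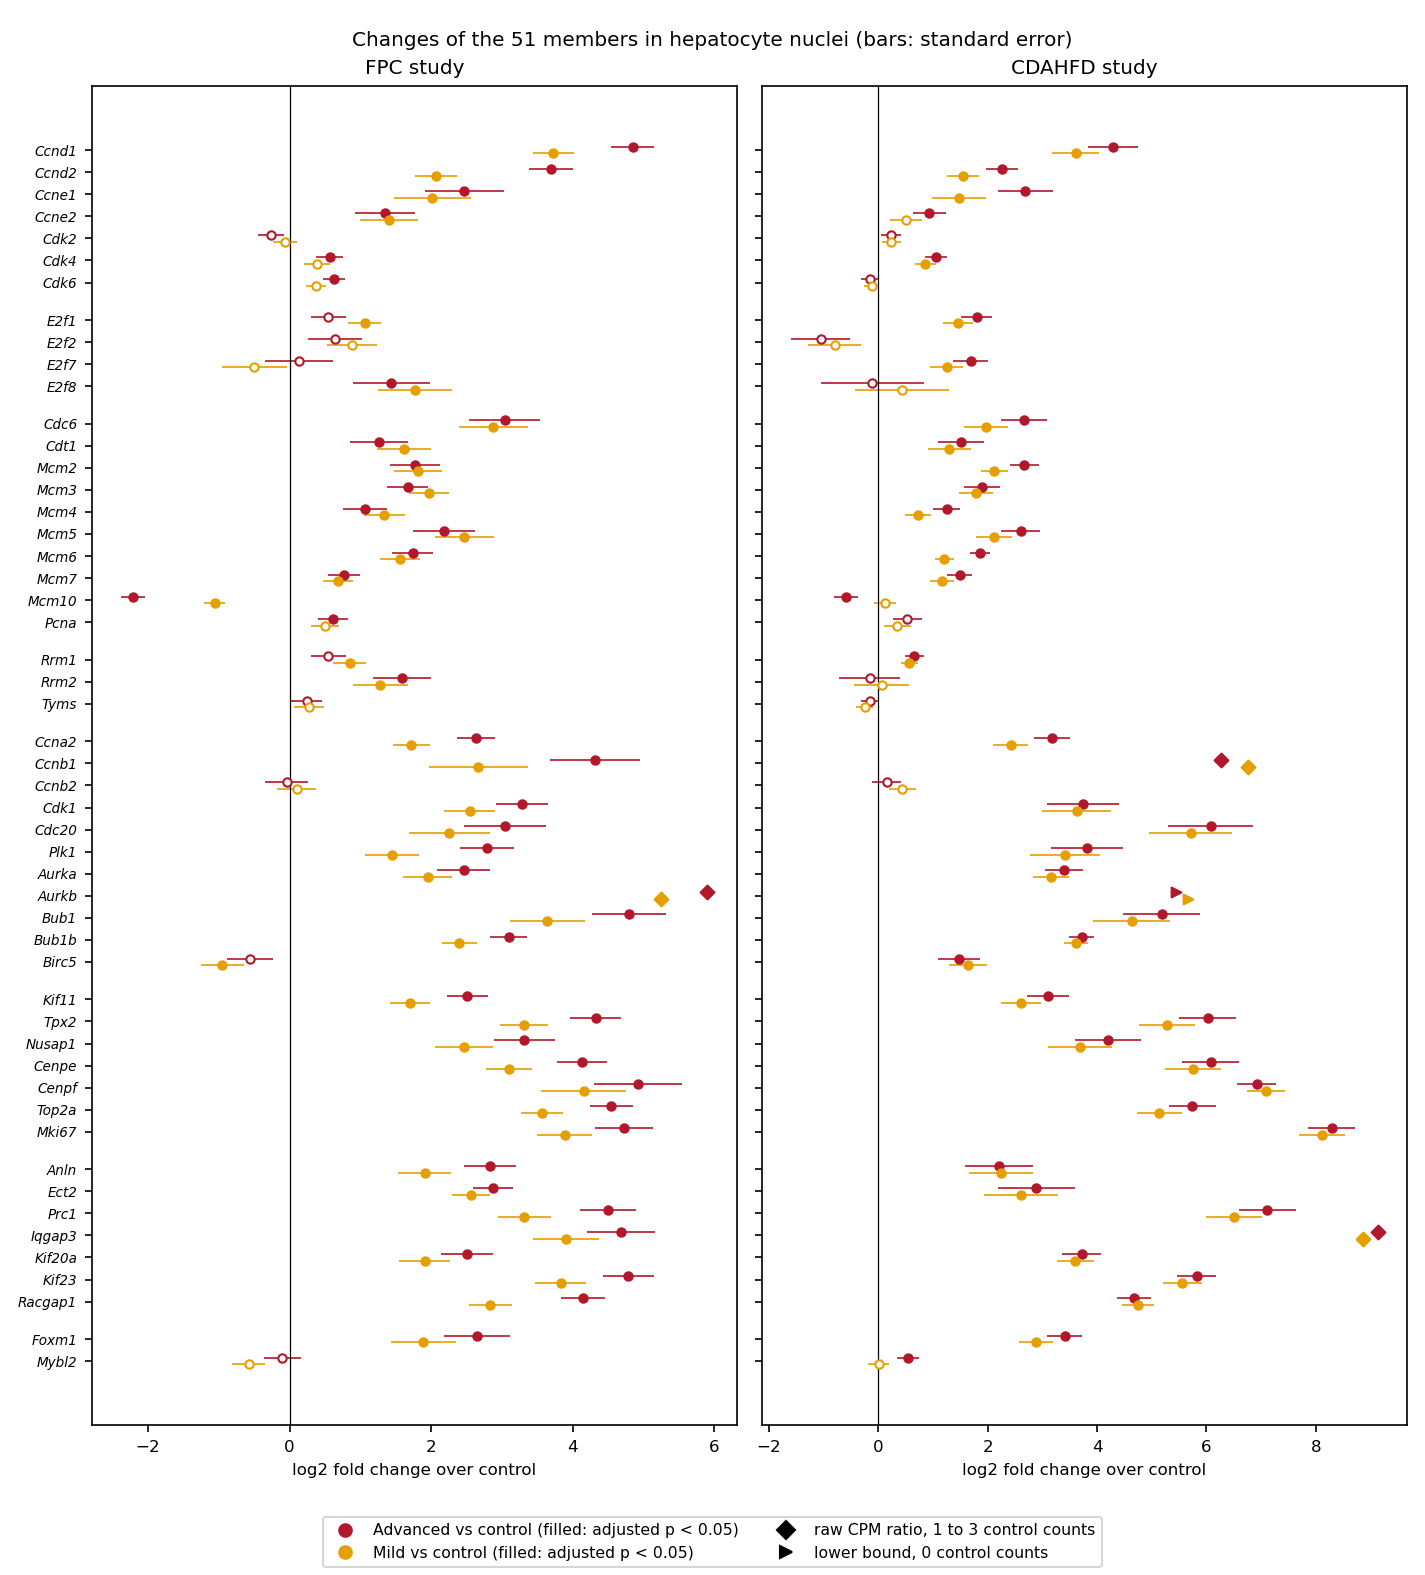
Log2 fold change over control (x axis, bars: SE) of each of the 51 genes (y axis, grouped by role) in hepatocyte nuclei, with advanced and mild mice as separate points; filled points passed the test, diamonds are raw CPM ratios over 1 to 3 control counts and triangles lower bounds. Points of the mitotic genes lie farthest right in both studies, while Mcm10 lies left of 0 in the FPC study.

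Sums of CPM over a phase weigh its most abundant genes. The 27 mitotic genes summed to a lowest of 236, a median of 236 and a highest of 300 CPM in advanced FPC hepatocyte nuclei, against 16.2, 20.5 and 22.9 in controls. In the CDAHFD study they summed to 213, 257 and 523 CPM in advanced mice and 9.39, 11.4 and 13.6 in controls. Mouse CDA_9845 alone held the highest value of the advanced CDAHFD mice. The 11 G1 genes summed to 475, 515 and 534 CPM in advanced FPC mice and 208, 220 and 238 in controls, and Cdk6, a gene of 178 kb, made up 76% and 85.8% of the mean sum. The 13 S-phase genes summed to 92.3, 107 and 111 CPM in advanced FPC mice and 91, 93 and 98.5 in controls. Mcm10 held 17.2% of that mean sum in advanced mice and 66.4% in controls. In the CDAHFD study the G1 genes summed to 382, 415 and 427 CPM in advanced mice and 194, 241 and 308 in controls, and the S-phase genes to 144, 150 and 160 CPM and 65.7, 91.2 and 99.9. The S-phase sums differed less than the G1 sums under FPC, unlike the median changes of the genes.

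Among the 7 G1 cyclins and kinases, 6 rose in advanced FPC hepatocyte nuclei (median 1.35) and 5 in advanced CDAHFD nuclei (median 1.05). Ccnd1, the D-type cyclin that couples growth signals to G1 entry, had 33.5, 66.1 and 51.8 CPM in advanced FPC hepatocytes, against 1.14, 1.74, 1.18 and 1.20 CPM in controls. The groups did not overlap, and the change was 4.85 ± 0.30 (adjusted p = 6.5e-08). Under CDAHFD Ccnd1 had 39.7, 79.6 and 72.3 CPM in advanced mice, against 1.60, 4.29, 0.733 and 2.4 CPM in controls (4.29 ± 0.45, 1.4e-05). Again every advanced mouse lay far above every control. Ccnd2, a second D-type cyclin, averaged 15.4 ± 6.38 CPM in advanced and 0.9 ± 0.356 CPM in control FPC mice (SD, n = 3 and 4; change 3.69 ± 0.31, 8.7e-07). Its CDAHFD change was 2.26 ± 0.30 (5.6e-05).

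The E-type cyclins, which activate Cdk2 at the entry to S phase, were also higher. Ccne1 changed by 2.47 ± 0.56 (adjusted p = 0.0028) in advanced FPC and 2.69 ± 0.50 (6.7e-04) in advanced CDAHFD hepatocytes. Ccne2 had 5.55, 3.68 and 2.94 CPM in advanced FPC mice, against 1.30, 0.916, 1.34 and 1.33 CPM in controls. CDAHFD gave 5.37, 5.77 and 4.61 CPM of Ccne2 in advanced mice, against 1.28, 2.37, 1.30 and 2.75 CPM in controls. The groups were apart in both studies, with changes of 1.35 ± 0.43 (0.021) and 0.93 ± 0.30 (0.019). The calls of Ccne2 were lost in edgeR without mouse FPC_6826 (adjusted p = 0.11) or FPC_6852 (0.056) and without mouse CDA_9896 (0.058) or CDA_9862 (0.053). Its gene overlaps Ints8 by 5622 bases on the other strand, and whether counting used strand is not given in the sources used here, which also touches Ccna2, Cdc20, Kif20a and Nusap1. Cdk4, a partner of the D-type cyclins, rose by 0.57 ± 0.19 (0.026) under FPC, a call lost without mouse FPC_6880 (0.18) and, narrowly, without control FPC_6816 (0.051), FPC_6852 (0.052) or FPC_6953 (0.068), and by 1.05 ± 0.20 (8.1e-04) under CDAHFD. Cdk6, the other partner, averaged 386 ± 50.5 CPM in advanced and 190 ± 13.4 CPM in control FPC mice (0.63 ± 0.15, 0.0041). Under CDAHFD its change was -0.16 ± 0.15 (0.37). Per kb of counted length, Ccnd1 reached 5.06 CPM in advanced and 0.132 CPM in control FPC hepatocytes, and Cdk6 2.17 and 1.07 CPM.

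Of the 4 E2F factors, E2f8 alone rose under FPC, and E2f1 and E2f7 rose under CDAHFD. E2f1, an activator of S-phase genes, changed by 0.55 ± 0.25 (adjusted p = 0.086) in advanced FPC and 1.80 ± 0.28 (2.0e-04) in advanced CDAHFD hepatocytes. E2f7, an atypical E2F that represses, changed by 0.14 ± 0.48 (0.84) and 1.69 ± 0.32 (7.5e-04). E2f8, the other atypical repressor, rose under FPC by 1.44 ± 0.55 (0.048), a call lost without mouse FPC_6880 (0.24), without control FPC_6852 (0.095), FPC_6952 (0.11) or FPC_6953 (0.072), and after subtraction of carry-over (0.056). Under CDAHFD it had 17.4, 8.98 and 9.85 CPM in advanced mice, against 29.1, 1.74, 4.91 and 0.954 CPM in controls. The highest control was mouse CDA_9862, and without it the change of -0.11 ± 0.94 (0.93) became 1.82 (0.018). In whole liver the high control was mouse CDA_9867, at 24.8 CPM. E2f2, an activator, had 2.96, 2.14 and 3.15 CPM in advanced CDAHFD hepatocytes, against 0.678, 5.39, 5.30 and 5.11 CPM in controls. Mouse CDA_9862 was here the low control; the change was -1.05 ± 0.54 (0.11) with it and -1.42 (0.0015) without it.

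Of the 10 genes of origin licensing and replication, 9 rose and 1 fell in advanced FPC hepatocytes, and 8 rose and 1 fell under CDAHFD. Cdc6 and Cdt1 load the Mcm2 to Mcm7 helicase on origins. Cdc6 averaged 2.39 CPM in advanced and 0.218 CPM in control FPC mice (3.04 ± 0.50, adjusted p = 2.8e-04) and rose by 2.67 ± 0.42 (2.1e-04) under CDAHFD. Cdt1 rose by 1.26 ± 0.41 (0.022) under FPC and 1.51 ± 0.42 (0.0082) under CDAHFD, and the FPC call was lost without mouse FPC_6904 (0.19), without control FPC_6952 (0.054) or FPC_6953 (0.057), and after subtraction of carry-over (0.058). Mcm5, a helicase subunit, had 5.59, 7.47 and 7.63 CPM in advanced FPC mice, against 1.10, 0.868, 1.34 and 1.2 CPM in controls. Mcm5 in the CDAHFD study had 2.88, 7.00 and 7.30 CPM in advanced mice, against 0.478, 0.921, 0.790 and 0.496 CPM in controls. No advanced mouse overlapped a control in either study (2.18 ± 0.44, 0.0012, and 2.60 ± 0.35, 5.6e-05).

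All 6 helicase subunits rose in both studies, from 0.77 ± 0.23 (Mcm7, adjusted p = 0.014, and 0.1 without mouse FPC_6880) to 2.18 (Mcm5) under FPC and from 1.25 ± 0.25 (Mcm4) to 2.67 ± 0.27 (Mcm2) under CDAHFD. Their summed CPM averaged 54.2 in advanced and 15.9 in control FPC mice, and 67.1 and 14.4 in the CDAHFD study. Mcm10, which binds the helicase when origins fire and helps recruit the polymerase, went the other way under FPC. It had 16.7, 20.5 and 16.4 CPM in advanced FPC hepatocytes, against 58.9, 68.1, 59.9 and 62.5 CPM in controls. Every advanced mouse lay below every control (-2.21 ± 0.17, 4.2e-07), and mild mice lay between, at 44.9, 28.2, 32.8 and 35.3 CPM. Under CDAHFD it had 56.1, 43.6 and 57.0 CPM in advanced mice, against 69.2, 59.3, 57.8 and 38.5 CPM in controls. These groups overlapped. The change of -0.59 ± 0.22 (0.037) was -0.10 (0.7) by library totals alone and -0.48 (0.1) after subtraction of carry-over. Leaving out any 1 of the 3 advanced mice or of controls CDA_9862, CDA_9867 and CDA_10110 also ended that call (0.053 to 0.14).

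**Figure D3:**
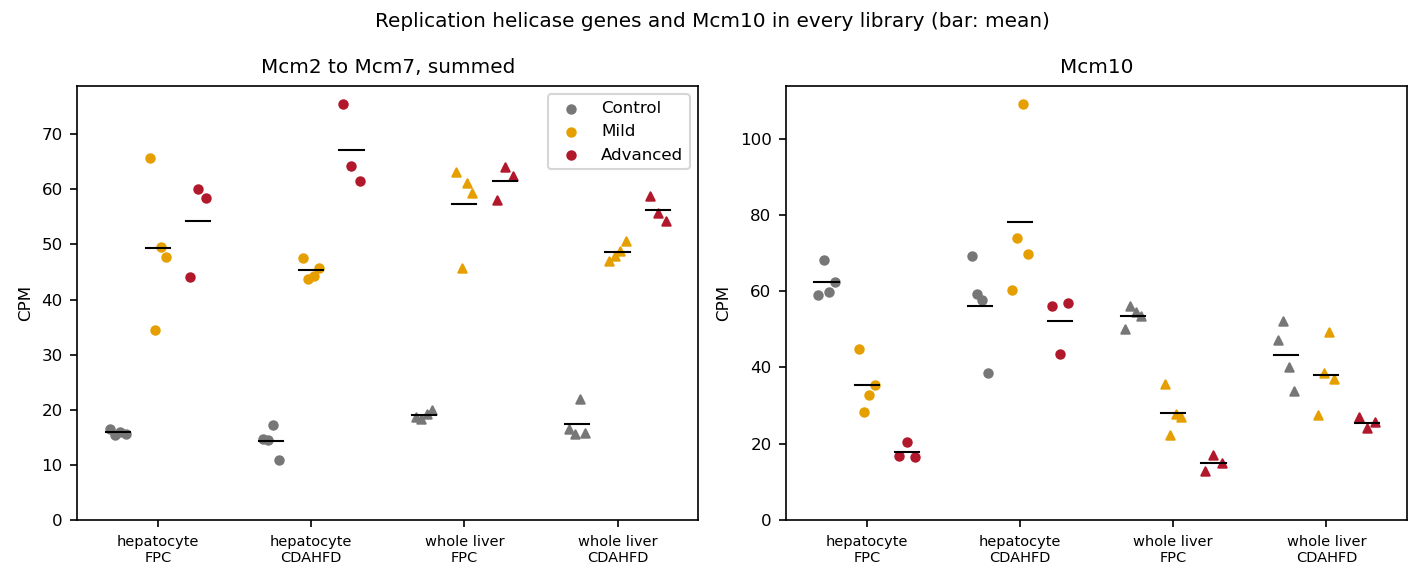
CPM (y axis) of Mcm2 to Mcm7 summed (left) and of Mcm10 (right) in every library, by fraction, study and stage (x axis; black bar, mean). The helicase sum is higher in every diseased library than in any control of its set, while Mcm10 falls stepwise from control to advanced in FPC hepatocytes (means 62.4, 35.3 and 17.8 CPM).

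Whole liver nuclei also held less Mcm10, with 12.9, 17.0 and 15 CPM in advanced FPC mice, against 50.0, 56.1, 54.5 and 53.4 CPM in controls (-2.28 ± 0.16, 2.2e-07). In whole CDAHFD livers it had 26.9, 24.0 and 25.7 CPM in advanced mice, against 47.2, 52.3, 40.2 and 33.9 CPM in controls (-1.23 ± 0.19, 1.2e-04). Mcm10 lies at chr2:4990724-5012791 on the minus strand (mm10) and was counted over 22.1 kb. Per kb it had 0.809 CPM in advanced and 2.83 CPM in control FPC hepatocytes. Mcm2 to Mcm6 had 0.316 to 0.562 CPM per kb in advanced mice and 0.0602 to 0.146 in controls, and Mcm7 2.21 and 0.966. Mcm10 was thus above all 6 in controls and below Mcm7 in advanced mice.

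Pcna, the sliding clamp of DNA polymerase, rose by 0.61 ± 0.21 (adjusted p = 0.033) under FPC, a call lost without advanced mouse FPC_6826 (0.11) or FPC_6880 (0.067) and without control FPC_6816 (0.069), FPC_6852 (0.085) or FPC_6952 (0.066). Under CDAHFD it changed by 0.53 ± 0.26 (0.094). Of the 3 genes of nucleotide supply, 1 rose in each study. Rrm2, the small subunit of ribonucleotide reductase that is made in S phase, had 2.42, 1.26 and 2.32 CPM in advanced FPC mice, against 0.473, 0.579, 0.473 and 0.515 CPM in controls (1.59 ± 0.41, 0.006). Under CDAHFD it had 0.545, 2.31 and 0.821 CPM in advanced mice, against 0.478, 0.744, 1.02 and 1.53 CPM in controls. The CDAHFD groups overlapped (-0.16 ± 0.55, 0.82). Rrm1, the large subunit, rose under CDAHFD (0.66 ± 0.17, 0.0063) and changed by 0.55 ± 0.25 (0.09) under FPC. Tyms, the thymidylate synthase, changed by 0.24 ± 0.22 (0.39) and -0.15 ± 0.17 (0.45).

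Of the 27 mitotic genes, 24 rose in advanced FPC hepatocytes and 26 in advanced CDAHFD hepatocytes. Mki67, which coats mitotic chromosomes and marks cycling cells, had 69.8, 60.7 and 51.1 CPM in advanced FPC mice, against 1.62, 0.820, 2.13 and 2.27 CPM in controls (4.73 ± 0.41, adjusted p = 1.6e-06). In the CDAHFD study it had 146.1, 70.9 and 49.5 CPM in advanced mice, against 0.199, 0.213, 0.282 and 0.115 CPM in controls (8.29 ± 0.43, 1.5e-07). Advanced mice of the studies overlapped each other, while CDAHFD controls all lay below FPC controls. Mki67 made up 26.8% of the mean mitotic sum in advanced and 1.77% in control CDAHFD mice, against 23.5% and 8.53% in the FPC study.

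Top2a, the topoisomerase that disentangles sister chromatids, had 22.5, 15.7 and 18.3 CPM in advanced FPC mice, against 0.512, 0.289, 0.710 and 0.901 CPM in controls (4.55 ± 0.31, adjusted p = 1.3e-07). Its CDAHFD values were 38.0, 19.4 and 14.7 CPM in advanced mice, against 0.359, 0.142, 0.564 and 0.267 CPM in controls (5.74 ± 0.43, 1.0e-06). Neither study had overlapping groups. All 7 spindle, kinetochore and chromosome genes rose in both, with a median of 4.33 under FPC and 6.02 under CDAHFD. Cenpf, a kinetochore protein, had 31.5, 27.8 and 22.2 CPM in advanced FPC mice, against 0.394, 0.241, 1.03 and 0.987 CPM in controls (4.93 ± 0.62, 4.6e-05), and changed by 6.92 ± 0.36 (1.1e-07) under CDAHFD. Tpx2, which nucleates spindle microtubules, changed by 4.33 ± 0.36 and 6.02 ± 0.52, and Cenpe, a kinetochore motor, by 4.13 ± 0.35 and 6.08 ± 0.52. Kif11, the motor that separates spindle poles, changed by 2.51 ± 0.29 and 3.10 ± 0.38. Nusap1, which bundles spindle microtubules, changed by 3.32 ± 0.43 and 4.20 ± 0.60.

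Of the 11 mitotic cyclins, kinases and checkpoint genes, 9 rose under FPC and 10 under CDAHFD. Ccnb1, the main partner of Cdk1 in mitosis, had 1.89, 1.16 and 1.40 CPM in advanced FPC mice, against 0, 0, 0.0394 and 0.172 CPM in controls (4.32 ± 0.64, adjusted p = 1.2e-04). Ccnb1 in the CDAHFD study had 1.17, 0.742 and 0.593 CPM in advanced mice, against 0, 0, 0.0564 and 0 CPM in controls. That is 37 counts against 1, a 76.7-fold ratio with a 95% counting interval from 12.9 to 3110. Aurkb, the kinase of the chromosomal passenger complex, had 1.18, 1.0 and 1.64 CPM in advanced FPC mice, with 2 counts in 1 of 4 controls (60-fold, 16.1 to 503). Under CDAHFD it had 2.10, 1.40 and 0.867 CPM in advanced mice and no count in any control, which is at least 43.5-fold higher over a floor of 3 counts in the control group. These intervals and floors cover counting error only. Ccna2, the cyclin of S phase and G2, changed by 2.64 ± 0.27 and 3.17 ± 0.33, and Cdk1, the mitotic kinase, by 3.29 ± 0.37 and 3.75 ± 0.66. Bub1 and Bub1b, of the spindle checkpoint, changed by 4.80 ± 0.52 and 3.10 ± 0.26 under FPC and by 5.18 ± 0.71 and 3.72 ± 0.23 under CDAHFD. Plk1 (2.79 ± 0.38 and 3.81 ± 0.66), Aurka (2.46 ± 0.37 and 3.40 ± 0.35) and Cdc20 (3.04 ± 0.58 and 6.08 ± 0.78), which drive mitotic entry, spindle assembly and anaphase, rose as well.

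All 7 cytokinesis genes rose in both studies, with medians of 4.15 and 4.67. Iqgap3, a scaffold of the actin cortex, had 7.98 ± 1.72 CPM in advanced and 0.229 ± 0.188 CPM in control FPC mice (SD, n = 3 and 4; 4.68 ± 0.48, adjusted p = 4.8e-06). In the CDAHFD study it had 14.6, 11.7 and 9.67 CPM in advanced mice, against 0.0399, 0.0354, 0 and 0 CPM in controls. The 541 counts against 2 make a 561-fold ratio (154 to 4642). Prc1 and Kif23, which bundle microtubules of the central spindle, changed by 4.50 ± 0.39 and 4.79 ± 0.36 under FPC and by 7.11 ± 0.52 and 5.82 ± 0.36 under CDAHFD. Racgap1 (4.15 ± 0.31 and 4.67 ± 0.31), Ect2 (2.88 ± 0.28 and 2.89 ± 0.70), Anln (2.83 ± 0.37 and 2.20 ± 0.62) and Kif20a (2.51 ± 0.37 and 3.72 ± 0.36), which position and close the cleavage furrow, rose in both. Foxm1, the factor that drives G2 and mitotic genes, had 2.06, 2.68 and 3.14 CPM in advanced FPC mice, against 0.434, 0.241, 0.473 and 0.0858 CPM in controls (2.65 ± 0.47, 5.1e-04). Under CDAHFD it had 4.20, 3.71 and 4.02 CPM in advanced mice, against 0.199, 0.248, 0.451 and 0.191 CPM in controls (3.41 ± 0.32, 4.9e-06). The groups of Foxm1 were apart in both studies.

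**Figure D4:**
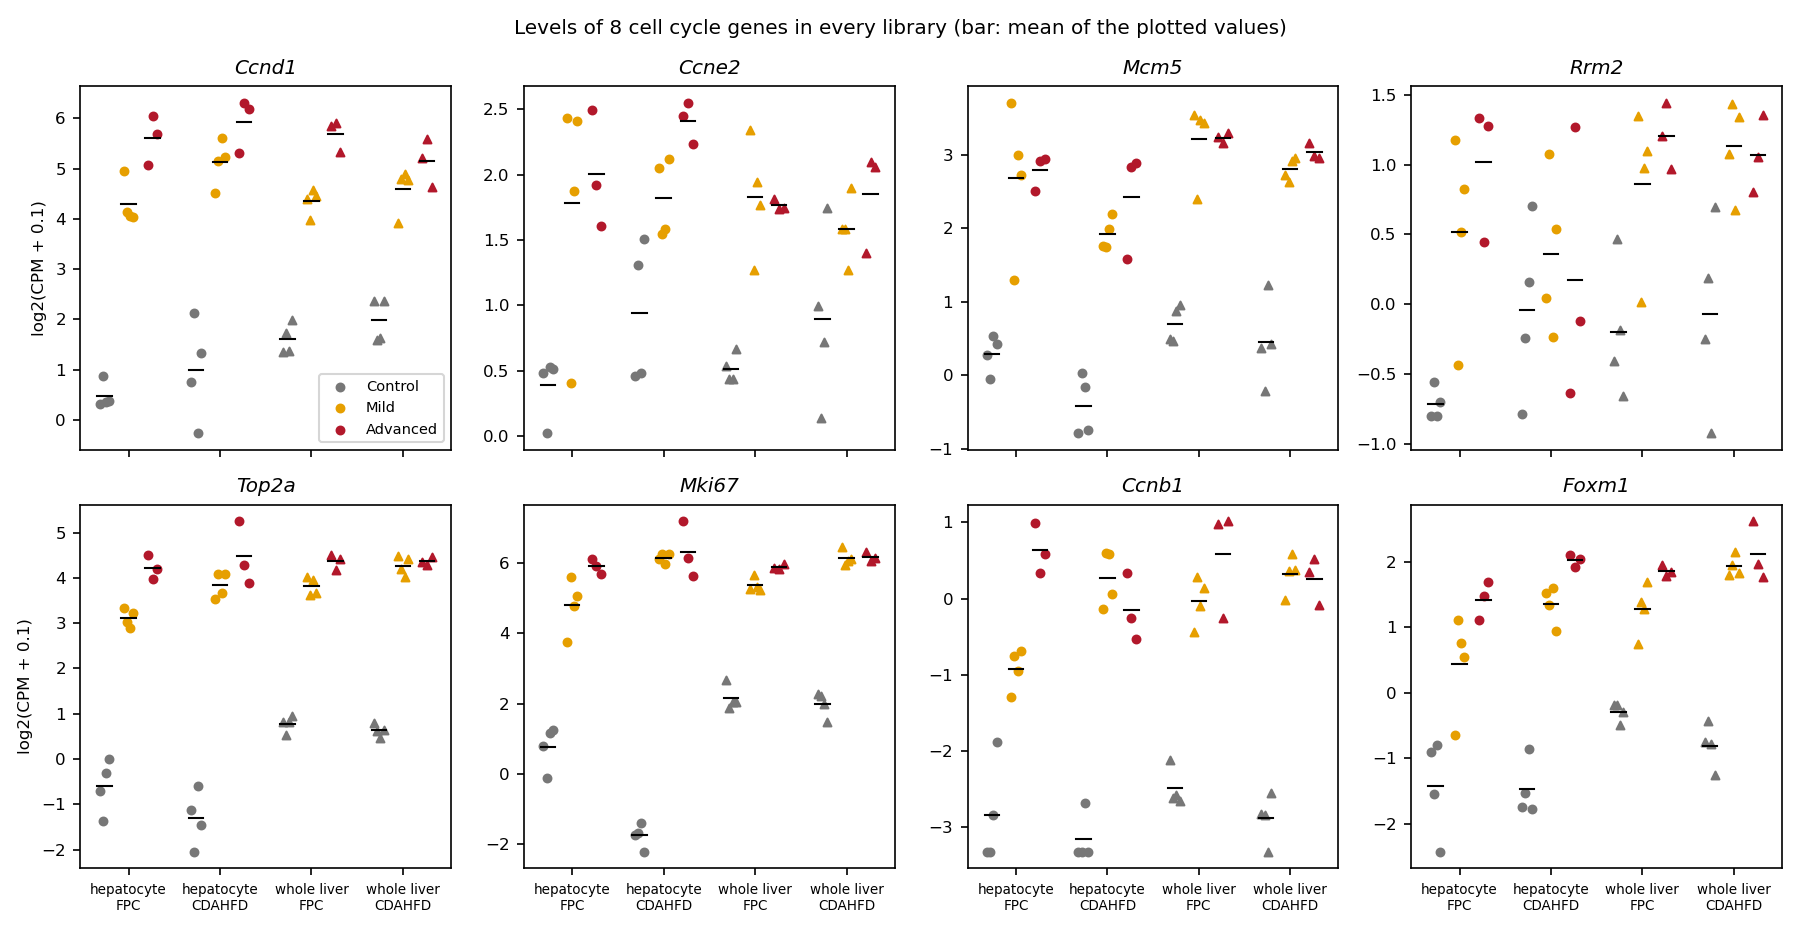
Log2(CPM + 0.1) (y axis) of 8 genes in every library, by fraction, study (x axis) and stage (colour), with the mean of the plotted values as a bar. Diseased hepatocyte libraries lie above all controls for Ccnd1, Mcm5, Top2a, Mki67, Ccnb1 and Foxm1, while the Rrm2 groups of the CDAHFD study overlap.

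A few mitotic genes did not follow. Ccnb2, the second B-type cyclin, changed by -0.04 ± 0.30 (adjusted p = 0.93) in advanced FPC and 0.15 ± 0.27 (0.64) in advanced CDAHFD hepatocytes. Birc5, survivin, of the chromosomal passenger complex, had 1.80, 1.79 and 2.56 CPM in advanced FPC mice, against 3.39, 1.45, 2.96 and 1.41 CPM in controls (-0.56 ± 0.32, 0.17). Those groups overlapped. Under CDAHFD it had 2.41, 2.06 and 3.15 CPM in advanced mice, against 0.279, 0.603, 0.959 and 0.801 CPM in controls, and rose (1.48 ± 0.38, 0.0049). Mybl2, B-Myb of the complex at CHR elements, changed by -0.10 ± 0.26 (0.78) and 0.55 ± 0.20 (0.036). The CDAHFD call of Mybl2 was lost without advanced mouse CDA_9896 (0.051) or CDA_10104 (0.15) and without control CDA_9862 (0.073), CDA_10110 (0.072) or CDA_10113 (0.063). Cdk2, the kinase of S-phase entry, did not pass either, at -0.26 ± 0.18 (0.27) and 0.23 ± 0.19 (0.32). Cdk2, Tyms and Ccnb2 missed the threshold in all 4 comparisons of advanced with control mice, whole liver included.

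Mild disease gave similar counts. In mild FPC hepatocytes 40 genes rose and 2 fell, against 21.8% and 11.3% of all genes, and 38 rose by more than 2-fold (17.7% of all). The genes that fell were Mcm10 (-1.06 ± 0.15, adjusted p = 1.7e-04) and Birc5 (-0.95 ± 0.30, 0.029), and the call of Birc5 was lost by library totals alone (0.096), after subtraction of carry-over (0.066), and without control FPC_6816 (0.1) or FPC_6952 (0.09) or mild mouse FPC_6886 (0.061) or FPC_6887 (0.071). In mild CDAHFD hepatocytes 40 rose and 0 fell, against 29.6% and 26.7% of all genes, and 37 rose by more than 2-fold (18.8% of all). By library totals alone the shares of all genes were 31.9% higher and 4.45% lower in mild FPC and 44.9% and 13.1% in mild CDAHFD hepatocytes. The control, mild and advanced medians of the mitotic sum were 20.5, 130 and 236 CPM under FPC and 11.4, 245 and 257 CPM under CDAHFD. Mki67 had 13.3, 48.5, 27.1 and 33.4 CPM in mild FPC hepatocytes, all above the controls and below the advanced mice. In mild CDAHFD hepatocytes it had 69.2, 76.9, 62.5 and 76.7 CPM, inside the range of the advanced mice. Hepatocyte libraries of mild FPC mice held more of other cells' markers. Endothelial markers summed to 12.5 to 24.1% of their whole liver CPM, against 8.37 to 9.74% in controls and 8.11 to 12.7% in advanced mice. Kupffer cell markers stood at 9.58 to 20.5%, against 7.45 to 8.99% and 12.4 to 14.5%. Mouse FPC_6825 was highest in both. For mild FPC changes this was tested only by subtraction of carry-over.

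Advanced against mild FPC hepatocytes differed in 12 genes that were higher and 1 that was lower, against 12.7% and 7.49% of all genes (16.6% and 3.96% by library totals alone). Of the 12, 10 act in mitosis and the others are Ccnd1 and Ccnd2. Ccnd1 averaged 50.5 CPM in advanced and 20.4 CPM in mild mice (1.12 ± 0.26, adjusted p = 0.008), and Ccnd2 15.4 and 4.41 CPM (1.62 ± 0.28, 0.0013). Racgap1 averaged 6.75 and 2.47 CPM (1.30 ± 0.26, 0.0035), Plk1 1.96 and 0.701 CPM (1.34 ± 0.33, 0.013), and Top2a 18.8 and 8.63 CPM (0.98 ± 0.26, 0.017). Mcm10 was lower in advanced mice (-1.15 ± 0.17, 3.7e-04). The S-phase median was -0.06 and the mitotic median 0.81. Without mouse FPC_6826, 6 genes in all were called instead of 13, and without FPC_6887 or FPC_6888, 7 and 8. Advanced against mild CDAHFD hepatocytes gave 0 calls with edgeR, against 1.3% higher and 1.52% lower of all genes (3.91% and 0.866% by library totals alone). At an unadjusted p under 0.05 there were 7 of the 51 genes there, against 20.5% of all genes, and DESeq2 called 1.

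Whole liver nuclei gave similar counts and lower mitotic medians. In advanced FPC livers 44 genes rose and 1 fell, against 31.3% and 28% of 14129 genes, and in advanced CDAHFD livers 41 rose and 1 fell, against 29.7% and 25.9% of 14098. The mitotic medians were 2.51 and 3.15, beside 3.29 and 4.20 in hepatocyte nuclei. In mild livers 44 rose and 1 fell under FPC (25% and 18.2% of all genes) and 42 rose and 1 fell under CDAHFD (27.7% and 24.5%). By library totals alone the shares of all genes were 51.5% higher and 10.8% lower (advanced FPC), 52% and 10.7% (advanced CDAHFD), 40.7% and 6.52% (mild FPC) and 46.7% and 8.94% (mild CDAHFD). The gene that fell was Mcm10 in each of these 4 comparisons. In mild CDAHFD livers its groups overlapped, with 27.6, 38.5, 49.4 and 37 CPM against 47.2, 52.3, 40.2 and 33.9 CPM in controls. TMM scaling moves that comparison by -0.38 on the log2 scale. Advanced against mild gave 3 higher and 1 lower under FPC (13.3% and 8.98% of all, or 18.7% and 4.74% by library totals alone), namely Ccnd1 (1.20 ± 0.19, adjusted p = 8.4e-04), Ccnd2 (0.82 ± 0.14, 0.0015) and Prc1 (0.75 ± 0.23, 0.034), with Mcm10 lower (-1.08 ± 0.16, 4.7e-04). The call of Prc1 was lost without advanced mouse FPC_6826 (0.11) or FPC_6904 (0.12) or mild mouse FPC_6887 (0.054) or FPC_6888 (0.082). Under CDAHFD edgeR called 0 genes (0.83% and 1.05% of all, or 1.11% and 0.631% by library totals alone), with 2 of the 51 genes at an unadjusted p under 0.05 (13.9% of all) and 1 called by DESeq2. E2f7 rose in advanced livers by 1.32 ± 0.23 (3.3e-04) under FPC and 1.42 ± 0.19 (3.8e-05) under CDAHFD.

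Hepatocyte nuclei held 0 (FPC) and 1 (CDAHFD) mitotic genes that were lower than in whole liver nuclei in advanced mice, against 7 and 15 in controls. Of all genes, 17.7% and 23% were lower in advanced mice, against 16.2% and 16.4% in controls. Counts of calls do not test a difference between stages. That test is given further below. In FPC controls 0 genes were higher and 9 lower in hepatocyte nuclei, against 1.35% and 16.2% of 14333 genes, and 7 of the 9 act in mitosis. As a share of the cell cycle genes described here, the 9 lower genes were near the 16.2% of all genes. The FPC control count therefore does not set these genes as a whole apart from other genes. In CDAHFD controls 1 was higher and 19 lower, against 14.6% and 16.4% of 14315 genes, and 15 of the 19 act in mitosis. By library totals alone 0.00698% of all genes were higher and 17.9% lower in FPC controls, and 0.685% and 17.9% in CDAHFD controls. Mki67 averaged 0.202 CPM in hepatocyte and 3.94 CPM in whole liver nuclei of CDAHFD controls (-4.07 ± 0.37, adjusted p = 1.7e-08), and 1.71 and 4.46 CPM in FPC controls (-1.20 ± 0.33, 0.012, and 0.12 without mouse FPC_6816). Kif23 averaged 0.103 and 2.46 CPM in CDAHFD controls (-4.31 ± 0.31, 3.6e-10) and 0.224 and 1.82 CPM in FPC controls (-2.83 ± 0.32, 4.3e-07). Ccnd2 averaged 0.764 and 8.62 CPM in CDAHFD controls (-3.27 ± 0.24, 5.4e-10). With the mouse as a block, 2 genes were higher and 14 lower in FPC controls, against 21.4% and 18.8% of all genes.

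In advanced FPC mice 0 genes were higher and 2 lower in the hepatocyte fraction than in whole livers, against 4.83% and 17.7% of all genes (2.34% and 18.5% by library totals alone). They were Ccnd2, at 15.4 and 32.6 CPM (-1.03 ± 0.23, adjusted p = 0.0017), and E2f7, at 3.96 and 11.4 CPM (-1.44 ± 0.42, 0.014). With the mouse as a block 2 were higher and 4 lower, against 22.2% and 22.6% of all genes, and without FPC_6826, FPC_6880 or FPC_6904 in turn 0 to 1 gene was called. In advanced CDAHFD mice 4 were higher and 4 lower, against 20.1% and 23% of all genes (15.3% and 26.2% by library totals alone). Those higher were Cdk4 (0.56 ± 0.19, 0.022), Mcm7 (30 and 14.8 CPM, 1.11 ± 0.23, 4.8e-04), Mcm10 (52.2 and 25.5 CPM, 1.13 ± 0.23, 5.4e-04) and Kif20a (1.11 ± 0.30, 0.0056). Ccnd2 (-1.77 ± 0.24, 5.1e-06), E2f7 (-0.85 ± 0.26, 0.013), Pcna (-0.64 ± 0.21, 0.019) and Kif23 (-0.60 ± 0.22, 0.029) were lower. Without CDA_9845, CDA_9896 or CDA_10104 in turn 4 to 6 genes were called in all: without CDA_9896 or CDA_10104 Cdk4 (0.11 and 0.14), E2f7 (0.12 and 0.16) and Kif23 (0.14 and 0.28) lost their calls, without CDA_9845 Kif20a (0.053), and without CDA_9845 or CDA_10104 Pcna (0.094 and 0.082). Mild mice gave 1 higher and 11 lower under FPC (7.19% and 19% of all genes, or 0.844% and 21.7% by library totals alone) and 4 higher and 9 lower under CDAHFD (23.1% and 27.6%, or 16.4% and 32.4%).

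Mouse by mouse, the mitotic sum in hepatocyte nuclei was 86.2 to 108% of that in whole liver nuclei in advanced FPC mice, against 55.7 to 67.1% in controls. In the CDAHFD study it was 78.1 to 159% in advanced mice and 34.1 to 45% in controls. Endothelial markers stood at 8.11 to 12.7% in advanced and 8.37 to 9.74% in control FPC mice, and at 9.79 to 12.4% and 6.79 to 10.8% in the CDAHFD study. Kupffer cell markers stood at 12.4 to 14.5% in advanced and 7.45 to 8.99% in control FPC mice, and at 10.9 to 14.5% and 3.08 to 7.45% in the CDAHFD study. Stellate cell markers stood at 22.3 to 27.5% in advanced and 19.6 to 34.1% in control FPC mice, and at 30.8 to 41% and 20.8 to 42.2% in the CDAHFD study. Recruited macrophage markers stood at 22.1 to 30.6% and 30.2 to 43.5%, and at 9.37 to 10.1% and 25.6 to 51%. Cholangiocyte markers stood higher, at 102 to 126% in advanced and 81.6 to 88.8% in control FPC mice and at 71.1 to 87.3% and 65.3 to 114% in the CDAHFD study. Hepatocyte markers stood at 123 to 133% in advanced and 98.1 to 107% in control FPC mice, and at 140 to 153% and 71.9 to 122% in the CDAHFD study. Both ends of that CDAHFD control range came from CDA_9862 and CDA_9867, whose libraries did not match by number. The same holds for the mitotic sum and for recruited macrophage and cholangiocyte markers. These ranges may therefore not be spread between animals.

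**Figure D5:**
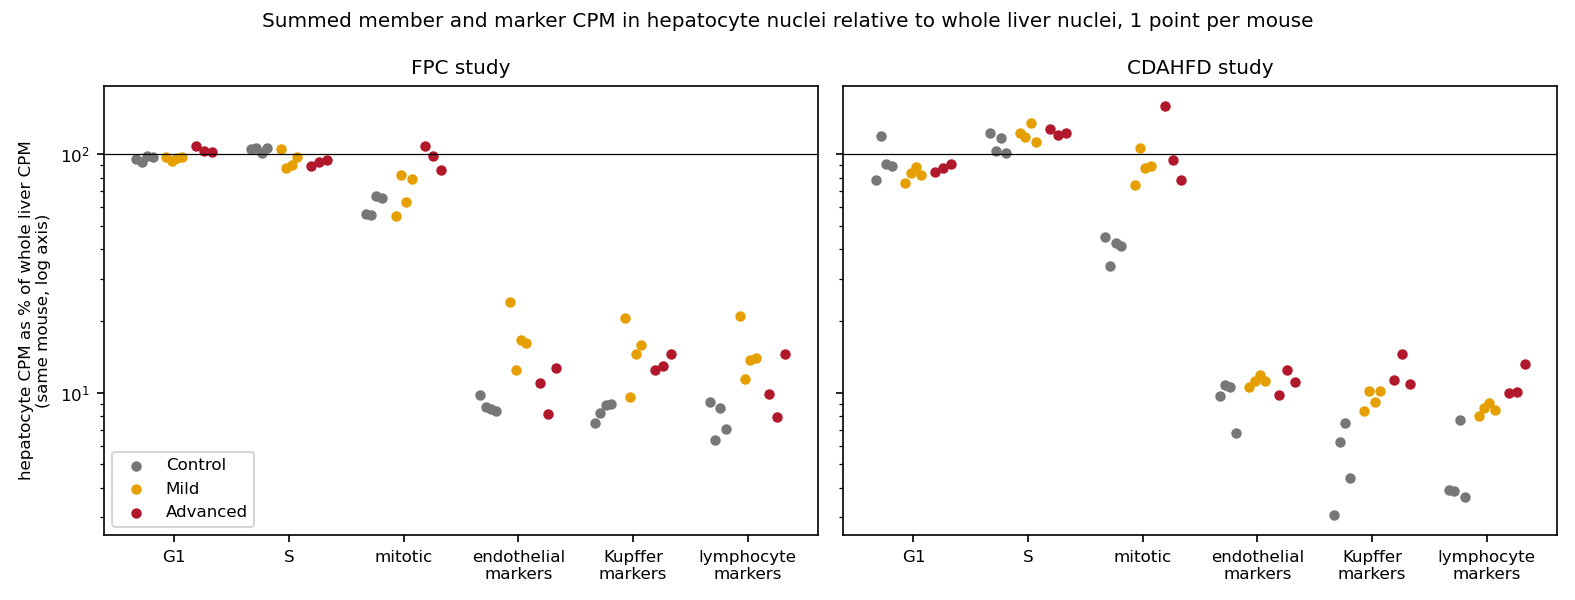
Summed CPM in hepatocyte nuclei as a percentage of that in whole liver nuclei of the same mouse (y axis, log scale) for the G1, S-phase and mitotic genes and for markers of 3 other cell types (x axis), coloured by stage. Mitotic genes stand at 34.1 to 45% in CDAHFD controls and at 78.1 to 159% in advanced mice, while endothelial markers stand at 6.79 to 12.4% in the same mice. The ends of the mitotic control range are mice CDA_9862 and CDA_9867, whose pairing of fractions is in doubt.

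The rise over controls differed between the fractions for 2 genes under FPC and 12 under CDAHFD, all with a larger change in hepatocyte nuclei. Of all genes, 2.83% differed upward and 0.984% downward under FPC, and 3.63% and 6.62% under CDAHFD (4.88% and 4.13% by library totals alone). Under FPC these were Ccnd2 (difference of changes 1.79 ± 0.33, adjusted p = 0.0019) and Kif23 (2.58 ± 0.41, 4.8e-04). With the mouse as a block, 6 genes differed under FPC, all upward, against 6.13% upward and 3.33% downward of all genes: Ccnd2 (1.75, 5.8e-04), Kif23 (2.57, 7.3e-04), Tpx2 (1.42, 0.014), Racgap1 (1.26, 0.013), Top2a (1.21, 0.007) and Bub1b (0.90, 0.015). Under CDAHFD the difference was 4.45 ± 0.47 (4.3e-06) for Mki67 and 3.70 ± 0.40 (4.3e-06) for Kif23. It was 1.51 ± 0.34 (0.0067) for Ccnd2, the only one of the 12 that does not act in mitosis. Per kb, Mki67 had 3.34 CPM in hepatocyte and 2.73 CPM in whole liver nuclei of advanced CDAHFD mice, and 0.0076 and 0.148 CPM in controls. Kif23 had 0.292 and 0.471 CPM in advanced mice, and 0.00348 and 0.0835 CPM in controls. For these 2 genes the fractions differed more in controls than in advanced mice. With mouse blocks and the libraries of CDA_9862 and CDA_9867 exchanged, a setting chosen after seeing the data, 20 genes differed, 17 of them upward, against 12.6% upward and 17% downward of all genes.

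Other cells' markers moved with disease inside the hepatocyte libraries. The 7 Kupffer cell markers summed to 41.9 to 47 CPM in advanced and 11.4 to 15.6 CPM in control FPC hepatocyte libraries, and to 53.9 to 70.9 and 6.62 to 16.5 CPM in the CDAHFD study. The 7 recruited macrophage markers summed to 47.4 to 63.1 and 2.99 to 4.03 CPM under FPC and to 70.5 to 77.3 and 4.08 to 7.22 CPM under CDAHFD. The 7 lymphocyte markers summed to 4.61 to 7.53 and 1.20 to 2.37 CPM, and to 3.97 to 6.75 and 0.420 to 1.41 CPM. The 3 neutrophil markers summed to 1.67 to 3.38 and 0.193 to 0.631 CPM, and to 1.63 to 4.43 and 0.153 to 0.959 CPM. The 10 endothelial markers summed to 92.9 to 131 and 64.2 to 102 CPM, and to 90.6 to 110 and 62.8 to 103 CPM. The 8 stellate cell markers summed to 134 to 169 and 50.6 to 98.6 CPM, and to 168 to 206 and 76.7 to 174 CPM. Immune, stellate and cholangiocyte sums were thus higher in advanced than in control libraries in the FPC study without overlap. The 8 cholangiocyte markers summed to 996 to 1687 and 110 to 125 CPM, and to 362 to 569 and 88.1 to 147 CPM. The 8 hepatocyte markers summed to 4925 to 8020 CPM in advanced and 8875 to 15308 CPM in control FPC libraries, and to 5320 to 7143 and 8216 to 18113 CPM in the CDAHFD study. Trem2 had no count in FPC control hepatocyte libraries, S100a8 none in the controls of either study or in mild FPC mice, and S100a9 none in CDAHFD controls. After subtraction of each mouse's carry-over, estimated from endothelial markers, 39 of the 51 genes rose and 1 fell in advanced FPC hepatocytes, and 42 rose and 0 fell under CDAHFD. Of all genes in those fits, 21.9% rose and 16.8% fell under FPC, and 28.2% and 26.9% under CDAHFD. The endothelial ratio is below those of stellate cell and cholangiocyte markers. Cholangiocyte markers were not lower than in whole liver in advanced FPC mice (102 to 126%), so their ratio gives no rate of carry-over. Which cells their RNA came from was not tested. In advanced FPC mice the endothelial ratio, at 8.11 to 12.7%, is also below that of recruited macrophage markers (22.1 to 30.6%). In advanced CDAHFD mice those 2 ratios were alike, at 9.79 to 12.4% and 9.37 to 10.1%. The subtraction may therefore leave RNA of other cells in place. After the subtraction Top2a changed by 4.84 and 6.46, and Ccnd1 by 5.08 and 4.54. For controls CDA_9862 and CDA_9867 it used the whole liver library of the same number, whose pairing is in doubt. The part of other cells' RNA in the changes was otherwise not tested.

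The change in advanced hepatocytes differed between the studies for 8 genes, 6 with a higher and 2 with a lower change under CDAHFD than under FPC, against 4.5% and 7.36% of 13808 genes. Mki67 (3.63 ± 0.68, adjusted p = 0.0033), Prc1 (2.67 ± 0.76, 0.028), Birc5 (2.10 ± 0.49, 0.011), Mcm10 (1.68 ± 0.28, 0.0014) and E2f1 (1.31 ± 0.37, 0.026) differed upward, with Iqgap3, whose CDAHFD controls held 2 counts. Ccnd2 (-1.37 ± 0.43, 0.042) and Cdk6 (-0.73 ± 0.21, 0.031) differed downward. Such a difference can lie in controls. Per kb, FPC and CDAHFD controls held 0.0643 and 0.0076 CPM of Mki67, and advanced mice 2.28 and 3.34 CPM. For Birc5 controls held 0.354 and 0.102 CPM, and advanced mice 0.315 and 0.39 CPM. Mcm10 went the other way, with 2.83 and 2.55 CPM in controls and 0.809 and 2.37 CPM in advanced mice. The calls of Ccnd2, Cdk6, E2f1 and Prc1 were each lost without single mice (adjusted p up to 0.098, 0.1, 0.079 and 0.064), and 5 genes were called in all without CDA_9845 or CDA_9867. In whole liver, Mcm10 (1.04 ± 0.24, 0.017) and Ccnd2 (-1.10 ± 0.23, 0.008) differed, against 1.7% upward and 2.97% downward of 14413 genes. Diet, weeks on diet and study go together here and cannot be told apart.

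Other cell cycle genes, outside the 51, were read from lists by function. In advanced hepatocyte nuclei, 38 of 41 mitosis genes rose and 3 fell under FPC (median 3.25), and 38 rose and 1 fell under CDAHFD (median 3.95). Of 29 further replication genes, 15 rose and 3 fell (median 0.61), and 11 rose and 5 fell (0.45). Of 13 pocket proteins, DREAM subunits and E2F partners, 3 rose and 3 fell under FPC (0.08), and 3 rose and 4 fell under CDAHFD (-0.25). Of all genes tested, 26.5% rose and 20.4% fell under FPC, and 30.3% and 29.2% under CDAHFD. The counts of this list were near those shares. Of 13 G1 and G2 regulators, 4 rose and 1 fell (0.31), and 6 rose and 3 fell (0.60). Of the replication-dependent histone genes, whose near-identical copies make counts uncertain, 2 of 17 tested rose under FPC and 7 of 22 under CDAHFD.

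Of these lists' largest and smallest changes, Melk, a mitotic kinase, and Hmmr, a spindle protein, rose under FPC by 4.94 ± 0.40 (adjusted p = 5.6e-07) and 4.76 ± 0.39 (6.4e-07). Hmmr rose by 6.14 ± 0.38 (2.6e-07) under CDAHFD, where Melk had 146 counts in advanced and 2 in control mice and Cdc25c, a phosphatase that activates Cdk1, 38 and 0. Tk1, the thymidine kinase of S phase, fell to 9.01 ± 4.18 CPM in advanced FPC hepatocytes, against 39.9 ± 12.6 CPM in controls (SD, n = 3 and 4; -2.55 ± 0.34, 5.5e-05). Rbl2, the p130 pocket protein of quiescent cells, fell to 63.9 CPM against 110 CPM under FPC (-1.19 ± 0.12, 4.5e-06) and to 62.3 against 92.2 CPM under CDAHFD (-1.06 ± 0.14, 6.2e-05). Tfdp2, an E2F partner, fell by 1.18 ± 0.20 and 1.57 ± 0.24 on the log2 scale, and Ccnf, an F-box cyclin, by 1.35 ± 0.24 under CDAHFD. Among CDK inhibitors, Cdkn1a (p21) averaged 9.67 ± 2.71 CPM in advanced and 0.205 ± 0.0702 CPM in control FPC mice (5.15 ± 0.39, 3.2e-07), and 14.6 and 0.599 CPM in the CDAHFD study (4.09 ± 0.42, 8.3e-06). Cdkn2c (p18) rose by 2.20 ± 0.26 (1.8e-05) and 2.79 ± 0.39 (8.0e-05). Cdkn1b (p27) rose under CDAHFD by 0.66 ± 0.20 (0.012) and changed by 0.12 ± 0.21 (0.69) under FPC. Cdkn1c (p57) was too low to test, at 0.190 and 0.0883 CPM in advanced mice and 0.105 and 0.121 CPM in controls of the studies.

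The authors' deposited table of hepatocyte comparisons holds 49 of the 51 genes; Ccnd2 and E2f7 are not among its rows. By its adjusted p-values under 0.05, 39 were higher and 1 lower in advanced FPC mice than in controls, and 41 and 1 in advanced CDAHFD mice. For mild mice the authors' deposited table has 38 higher and 3 lower under FPC and 38 and 0 under CDAHFD. Advanced against mild gave 14 higher and 1 lower under FPC and 0 and 1 under CDAHFD in the authors' deposited table. It puts Mki67 at a log2 fold change of 4.72 and 8.37 in advanced FPC and CDAHFD mice and Mcm10 at -2.22 and -0.55.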

How the data were processed

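RNA-seq was done on 44 libraries of nuclear RNA (50 to 100 ng, no poly-A selection, stranded kit, paired reads of 50 bases, per the labels' protocols). STAR 2.4.2a, DESeq2 1.24.0 and mm10 are named in the submitters' processing notes; the counting tool and its strand setting are not given in the sources used here. The authors deposited raw counts per gene, for most genes over the whole gene length by the lengths in the file headers, and a table of log2 fold changes with adjusted p-values for hepatocyte nuclei, whose signs were checked on the counts. The 51 members and the gene lists were chosen with earlier results of these data known.

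Counts were tested with edgeR 4.0.16 (quasi-likelihood F-test with robust dispersion, TMM scaling, filterByExpr, Benjamini-Hochberg adjustment over all genes at 0.05) in R 4.3.3, in 1 fit of 11 libraries for each fraction and study, of 22 libraries for comparisons of fractions and of studies. The SE is the log2 fold change divided by the root of F. Scripts were tested on simulated data. Alternatives were RLE scaling, library totals only, no low-count filter, DESeq2 1.42.0, only the 2 groups compared, carry-over subtracted (hepatocyte counts less the same mouse's whole liver counts times its ratio of endothelial marker CPM), the mouse as a block, and leaving out each mouse. Library totals only, and the block with CDA_9862 and CDA_9867 exchanged, were added after seeing the data.

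Hepatocyte and whole liver libraries of a mouse are the same animal by the labels; deviations from group means over 11781 genes correlated above 0.1, and best with the own partner, in 20 of 22 mice. Of the identifiers, 13147 were named by the authors' table, 6879 by a RefSeq table, and 79 had no name. All members are described by role. Every library is given for Ccnd1, Ccne2, Mcm5, Rrm2, Top2a, Mki67, Ccnb1, Foxm1 and, in each hepatocyte comparison of advanced with control mice, for the 2 members with the largest and the 2 with the smallest change. Of the other lists, the 3 largest and 3 smallest called changes and 4 CDK inhibitors are named. Each CPM rests on a library of 12135408 to 33063251 counts.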

Additional observations from a re-analysis of the deposited data

Results flagged for a closer look

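Groups of 4 libraries were checked for a value apart from the other 3 (Dixon's 95% criterion, gap to the nearest over the group's range) in 8 genes and in the sums of the 3 phases, and 8 of 88 groups had one, where chance gives about 1 in 20. Ccnd1 stood apart in mouse FPC_6852 among control hepatocytes (1.74 CPM, others 1.14 to 1.2), in mouse FPC_6825 among mild hepatocytes (30.9 CPM, others 16.3 to 17.5) and in mouse CDA_9852 among mild whole livers (15 CPM, others 27.5 to 29.6). The hepatocyte library of FPC_6825 also had the highest endothelial marker ratio of the mild FPC mice (24.1%). Ccne2 stood apart in control hepatocytes of mouse FPC_6852 (0.916 CPM, others 1.3 to 1.34). Mouse FPC_6886 stood apart among mild FPC whole livers for Mcm5 (5.18 CPM, others 10.7 to 11.5) and Mki67 (50.8 CPM, others 37.3 to 39.5). Ccnb1 stood apart in control hepatocytes of mouse CDA_10110 (0.0564 CPM, 1 count, others 0) and in the whole control liver of mouse FPC_6816 (0.131 CPM, others 0.0594 to 0.0676).

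The change of advanced against control mice differed between hepatocyte and whole liver nuclei by an interaction test in edgeR. Under FPC the difference was 1.79 for Ccnd2 (adjusted p = 0.0019) and 2.58 for Kif23 (4.8e-04). Under CDAHFD it was 4.45 for Mki67, 3.70 for Kif23, 3.19 for Prc1, 2.44 for Tpx2, 2.30 for Top2a, 2.26 for Cenpe and for Cenpf, 1.51 for Ccnd2, 1.5 for Aurka, 1.39 for Racgap1 and 1.34 for Bub1b. For Iqgap3 it was 4.43, over 2 counts in all control hepatocyte libraries. The calls of Aurka (adjusted p up to 0.08) and Racgap1 (up to 0.12) were lost without single mice, as was that of Cenpe without CDA_9862 (0.056) and of Cenpf without CDA_9867 (0.058).

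The same change differed between the studies. In hepatocyte nuclei the CDAHFD change less the FPC change was 3.63 for Mki67, 3.75 for Iqgap3 (again over 2 control counts), 2.67 for Prc1, 2.10 for Birc5, 1.68 for Mcm10, 1.31 for E2f1, -0.73 for Cdk6 and -1.37 for Ccnd2. In whole liver nuclei it was 1.04 for Mcm10 and -1.10 for Ccnd2.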

How the results depend on the processing

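Of the 51 genes, 38 to 41 (FPC, 42 in the full fit) and 40 to 43 (CDAHFD, 43) were called in advanced against control hepatocytes without single mice, and 40 to 46 and 42 to 44 under the other settings. E2f8, with a negative change and no call in the full fit, was called higher in advanced CDAHFD hepatocytes without control CDA_9862 (1.82, from -0.49 upward without other mice). The same held in whole CDAHFD livers without control CDA_9867, in advanced (1.39, from -0.71) and mild mice (1.72, from -0.38). Without single mice, calls ran from 6 to 13 for advanced against mild FPC hepatocytes (13). For hepatocyte against whole liver nuclei they ran from 6 to 9 in mild FPC (12), 0 to 1 in advanced FPC (2), 8 to 11 in mild CDAHFD (13) and 4 to 6 in advanced CDAHFD mice (8). For the difference between studies in hepatocytes they ran from 5 to 9 (8). DESeq2 called 1 gene for advanced against mild CDAHFD in either fraction (0 in edgeR) and 4 for the difference between fractions under FPC (2). Shares of all genes called by DESeq2 are not given here, so its counts stand without a background. With the replicate block of same-animal libraries, hepatocyte against whole liver nuclei gave 16 in FPC controls (9) and 6 in advanced FPC mice (2), and the difference between fractions under FPC 6 (2); the block changed no other count by over 1.5 times. With CDA_9862 and CDA_9867 exchanged, the difference under CDAHFD gave 20 (12). Library totals only gave 1 for advanced against mild CDAHFD hepatocytes, 8 for advanced against mild FPC whole livers (4), 15 for hepatocyte against whole liver nuclei in FPC controls (9) and 4 for the difference between fractions under FPC. For that difference, 2.94% of all genes were higher and 0.76% lower by library totals alone. The causes were not tested. Genes of a few counts, such as Ccnb1 and Aurkb in controls, are limited by depth, groups of 3 and 4 mice by the number of animals.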
